A study of Homo sapiens with 10 samples.

Results

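HBL2 cells resistant to bortezomib were compared with their matched parental cells across 14529 genes. HBL2 is an established human mantle cell lymphoma line, derived from a mature B cell tumour, and bortezomib blocks the proteasome. The resistant group (BR, 3 arrays) is a culture of the line with acquired resistance to the drug, and the matched group (PT, 3 arrays) is read here as the parental line, a reading that rests on knowledge of the study because its labels spell out no more than 2 letters. No drug dose, time under drug or clone number is given, so whether BR is 1 clone is not known. Total RNA came from cells growing in log phase and was hybridised to Affymetrix arrays, 1 sample to an array. These 6 arrays are part of a set of 10, of which the other 4 hold 2 PT and 2 BR samples of JEKO, a second mantle cell lymphoma line. The members were all non-control probe sets with exactly 1 gene symbol (41091 of 54675 probe sets), reduced to the brightest probe set of each gene that passed a filter on low values, which left 14529 of 19775 genes. Nothing states that the 3 replicates of a group came from separate cultures. The p-values therefore reflect the spread among these samples alone, and that spread may be technical. It was estimated over all 10 arrays, so the JEKO arrays enter the HBL2 p-values.

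The proteasome is a barrel of subunits that degrades ubiquitin-tagged proteins, and bortezomib binds its chymotrypsin-like active site, which is encoded by PSMB5. Cells that secrete much protein, such as plasma cells, depend heavily on it, and mature B cells lose antigen presentation and B cell receptor genes as they become plasma cells. The proteasome also cuts peptides for MHC class I and degrades the inhibitor that holds NF-kB in the cytoplasm. The comparison asks which of these programs differ between the resistant and the parental culture.

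All arrays shared 1 set of values, so a deposited score acts as a rank within its array. Scores ran from 0 to 4.99, with the 50th percentile at 0.73 and the 75th at 1.18, on a log-like scale of unstated base. Changes are therefore differences in deposited units (BR minus PT), a shift of most genes one way cannot be seen, and levels of different genes are not compared. Markers of mantle cell lymphoma and B cells were present: of 9 measured, 8 were above the 75th percentile on all 6 arrays (CCND1, MS4A1, CD79A, CD79B, PAX5, EBF1, SOX11 and CD22). CD5 lay between 0.44 and 0.86 and was the exception. Of 13 T and NK cell markers 0 were above that percentile on all 6 arrays, and 6, among them CD2, CD3D and NKG7, lay below the 50th percentile on every array. RNA quality, read as the 5' less the 3' control probe set of beta-actin, overlapped between the groups, at -1.25 to -0.58 in PT and -1.04 to -0.69 in BR.

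In total 1711 of 14529 genes differed between BR and PT (11.8%) at a limma adjusted p under 0.05. Of these, 714 were higher in BR (4.91% of genes tested) and 997 were lower (6.86%), and those 2 shares are the background for each gene list below. The lists were chosen with earlier results of these data known, so a count above these shares may be partly built into the choice. The median change of all genes was -9.87e-04. Changes of at least 0.5 units were found for 329 of the called genes, 126 higher and 203 lower. The count depended on single arrays: it was 1118 without BR replicate 2, and the rises were 460 without BR replicate 1 and 419 without BR replicate 2. PT and BR arrays did not overlap for 3963 genes (27.3%), among them 1684 of the 1711 called. Of the called genes, 1001 had another probe set above the filter. All of those other probe sets changed in the same direction for 817 of the 1001 genes (81.6%), against 55.0% of all 7105 genes with several probe sets, and 0 genes had another probe set called in the opposite direction.

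**Figure D1:**
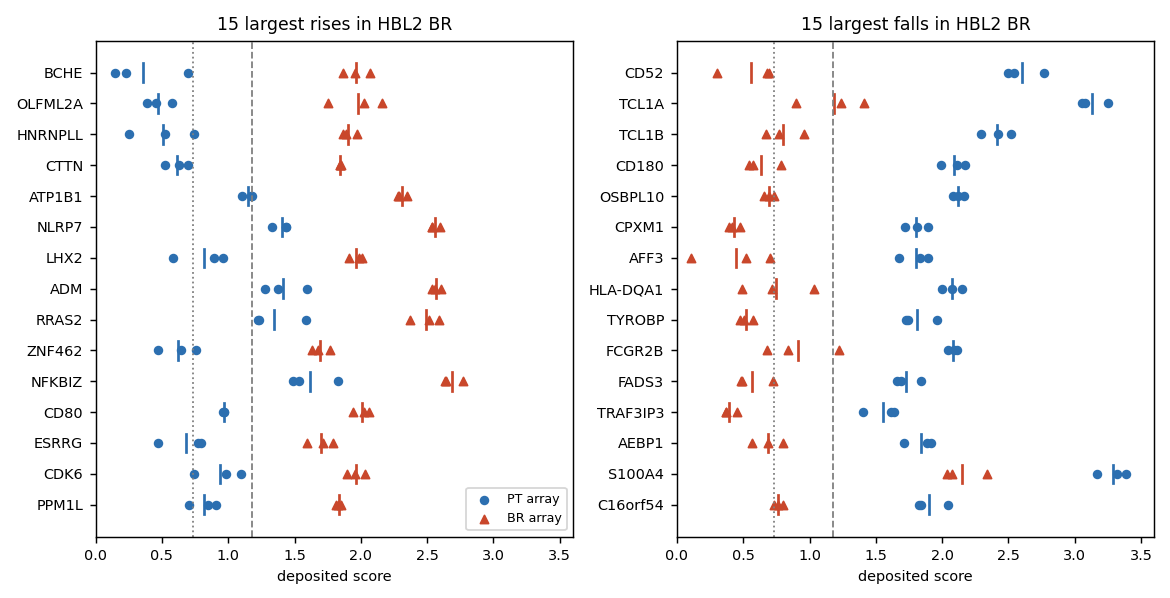
Deposited scores (x axis, log-like units) of the 15 largest rises (left) and 15 largest falls (right) in HBL2 BR, 1 gene per row; circles are PT arrays, triangles BR arrays, vertical bars group means, and the dotted and dashed lines the 50th (0.73) and 75th (1.18) percentiles of an array. The 3 BR arrays lie apart from the 3 PT arrays in each of the 30 rows, which the naming rule required.

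BCHE, the gene of butyrylcholinesterase, stood at 0.23, 0.15 and 0.70 on the PT arrays and at 2.07, 1.95 and 1.86 on the BR arrays, a change of 1.604 ± 0.14 (limma adjusted p = 6.87e-07). PT was below the array median and BR far above it, with no overlap. OLFML2A, a secreted olfactomedin-domain protein of the extracellular matrix, went from 0.46, 0.39 and 0.57 to 2.02, 2.16 and 1.75. HNRNPLL, which directs alternative splicing of CD45 in activated lymphocytes, went from 0.25, 0.52 and 0.74 to 1.97, 1.86 and 1.89. Its other 2 probe sets rose as well, by 0.82 and 0.98, so the rise did not rest on 1 probe set. ATP1B1, the beta subunit of the sodium pump, had tight groups, at 1.11, 1.17 and 1.18 in PT and 2.28, 2.29 and 2.35 in BR (1.16 ± 0.056), and its second probe set rose by 1.27. ADM, the vasoactive peptide adrenomedullin, rose by 1.15 ± 0.072 and NLRP7, an innate sensor of the NOD-like family, by 1.15 ± 0.061.

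RRAS2, a RAS-related GTPase, read 1.23, 1.22 and 1.58 in PT and 2.59, 2.52 and 2.37 in BR, with 2 further probe sets at changes of 1.104 and 1.11. CDK6, the kinase that D cyclins activate, rose by 1.02 ± 0.11, from 0.75, 1.09 and 0.98 to 2.03, 1.96 and 1.897. Its call was lost when percentile ranks replaced the scores (adjusted p = 0.062), and its other 5 probe sets changed by 0.021 to 0.95, 2 of them called. Its partners were not called: CDK4 changed by 0.0084 ± 0.051 (adjusted p = 0.95), CCND1 by -0.014 ± 0.063, CCND2 by 0.13 ± 0.085 and CCND3 by -0.19 ± 0.07 (adjusted p = 0.095, or 0.036 without BR replicate 3). The transcription factors LHX2 (1.15 ± 0.091), ZNF462 (1.07 ± 0.085), ESRRG, an orphan nuclear receptor (1.02 ± 0.094), and MEIS1, a homeobox partner of HOX proteins (0.84 ± 0.11), also rose. CD80, a ligand that costimulates T cells, sat at 0.96, 0.97 and 0.97 in PT and 1.94, 2.02 and 2.06 in BR, and both of its other probe sets rose (0.77 and 0.90).

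CD52, a lymphocyte surface glycoprotein and the target of alemtuzumab, read 2.77, 2.54 and 2.49 in PT and 0.30, 0.70 and 0.68 in BR, and its second probe set changed by -2.00, close to the -2.04 of the first. TCL1A, a coactivator of the kinase AKT, read 3.25, 3.06 and 3.07 in PT and 0.90, 1.24 and 1.41 in BR (-1.94 ± 0.095). TCL1B, its neighbour on chromosome 14, went from 2.52, 2.29 and 2.42 to 0.67, 0.77 and 0.96. In both, the highest BR array was more than 1 unit under the lowest PT array. CD180, a Toll-like receptor homologue that tunes B cell responses, fell by 1.46 ± 0.074, and FCGR2B, an Fc receptor that restrains B cells, by 1.17 ± 0.098. BR replicate 3 was the highest of the BR arrays for FCGR2B (1.22, against 0.68 and 0.84), yet it lay below every PT array (2.04, 2.09 and 2.12). S100A4, a calcium-binding protein of motile cells, stayed above the 75th percentile in both groups but fell from 3.32, 3.17 and 3.39 to 2.04, 2.08 and 2.34.

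Probe sets of 1 gene differed for some falls. OSBPL10, an oxysterol-binding protein relative, fell by 1.43 ± 0.06 on its brightest probe set, while its other 3 changed by -0.31 to -0.018. AFF3, a nuclear protein of lymphoid cells, fell by 1.36 ± 0.11, with its other 5 probe sets between -0.40 and -0.18 and 0 of them called. TRAF3IP3, a TRAF3-interacting adaptor, fell by 1.16 ± 0.072, and its other 3 probe sets spanned -0.73 to -0.091, 2 of them called. Without _x_at and _s_at probe sets, which can bind several transcripts, the adjusted p of TRAF3IP3 was 0.65 and that of OSBPL10 was 0.75. CPXM1 (a carboxypeptidase-like secreted protein, -1.38), AEBP1 (-1.16) and C16orf54 (-1.14) had 1 probe set each, and the single other probe set of FADS3, a fatty acid desaturase relative (-1.16), fell by 0.84.

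A stricter view asks which genes crossed the array's range, with all arrays of 1 group below the 50th percentile and all arrays of the other above the 75th. In BR 14 genes were switched on in this sense and 25 were switched off. Besides BCHE and OLFML2A, the gains included CTTN, the actin-branching protein cortactin, which went from 0.63, 0.69 and 0.52 to 1.85, 1.85 and 1.85, and SMAD1, a transducer of bone morphogenetic protein signals, from 0.66, 0.61 and 0.60 to 1.72, 1.58 and 1.58. MYOCD, a coactivator known from smooth muscle, went from 0.69, 0.49 and 0.57 to 1.33, 1.41 and 1.505, and the actin nucleator COBL from 0.49, 0.47 and 0.51 to 1.31, 1.36 and 1.28. PLA2G4A, the phospholipase that releases arachidonic acid, rose by 0.94 ± 0.095. IGSF10 (0.95), the phosphatase PPM1H (0.88) and ZNF385C (0.83) completed the 10 largest gains.

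Among the losses, TYROBP, an adaptor of activating immune receptors, went from 1.96, 1.75 and 1.73 to 0.48, 0.57 and 0.51. S100A6 fell from 2.04, 1.75 and 1.497 to 0.72, 0.67 and 0.49, the synaptotagmin-like SYTL1 from 1.79, 1.45 and 1.72 to 0.59, 0.43 and 0.56 and NAPSB from 1.42, 1.33 and 1.52 to 0.16, 0.44 and 0.42. SCN3A, a sodium channel subunit, fell by 1.13 ± 0.064, a call that ended (adjusted p = 0.81) without the _x_at and _s_at probe sets. The PT arrays of S100A6 differed among themselves, and the lowest still lay above every BR array. Of the 8 myeloid markers tested 3 fell (TYROBP, AIF1 and LYZ) and 0 rose, with a median change of -0.38. The summed list had a mean level of 0.71 to 0.83 in PT and 0.49 to 0.52 in BR, and 4 of 12 measured markers (CD14, CD163, S100A8 and S100A9) lay below the 50th percentile on all 6 arrays. The call of LYZ was lost without PT replicate 1 (adjusted p = 0.059).

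**Figure D2:**
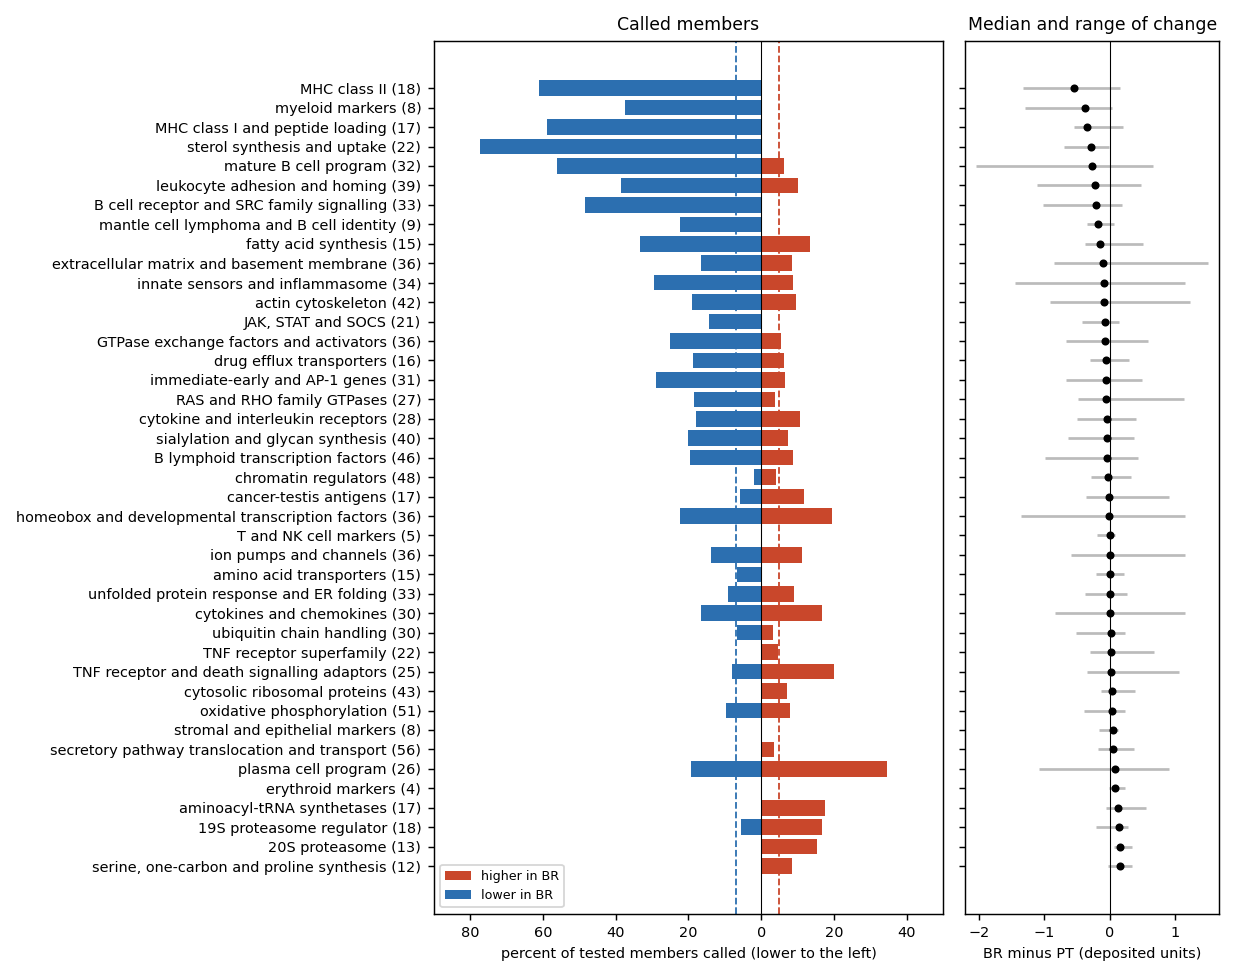
Share of the tested members of each of 41 gene lists (number tested in brackets) called higher (red, to the right) or lower (blue, to the left) in HBL2 BR, with dashed lines at 4.91% and 6.86%, the shares over all 14529 genes; the right panel gives the median change (dot) and the range of changes (line) in deposited units. The sterol list has the longest bar to the left (17 of 22 members) and the plasma cell list the longest to the right (9 of 26). Since the lists were chosen with earlier results of these data known, bars beyond the dashed lines may be partly built in.

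Genes of the mature B cell program were mostly lower in BR. Of 32 tested members 18 fell and 2 rose, with a median change of -0.27, against 6.86% and 4.91% of all genes. Beside CD52, TCL1A and CD180, FCRLA, an Fc receptor-like protein of germinal centre B cells, went from 2.28, 2.21 and 2.25 to 1.32, 1.199 and 1.39. CD72, a B cell coreceptor, fell by 0.81 ± 0.072 and CD37, a tetraspanin of mature B cells, by 0.50 ± 0.11. BLK, a SRC family kinase of B cells, fell from 1.37, 1.21 and 1.396 to 0.47, 0.096 and 0.68, with 1 BR array nearly at the bottom of the scale. The 2 rises were P2RX5, an ATP-gated channel (0.66), and FCER2. MS4A1, which encodes CD20, changed by -0.18 ± 0.062 (adjusted p = 0.072) and PAX5, the B cell identity factor, by -0.18 ± 0.084 (adjusted p = 0.22), so neither passed the test. In the list of mantle cell lymphoma and B cell identity genes 2 of 9 fell, the receptor chains CD79A (-0.35 ± 0.061) and CD79B (-0.25 ± 0.063). CD79B lost its call without PT replicate 1 (adjusted p = 0.057), BR replicate 1 (0.084) or BR replicate 2 (0.086).

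B cell receptor and SRC family signalling followed the same direction, with 16 of 33 members lower and 0 higher (median -0.21), a count of 11 to 15 when 1 array was left out. It shares BLK, BLNK, CD79A and CD79B with the list before. PAG1, a membrane adaptor that anchors the kinase CSK, read 2.09, 2.04 and 2.09 in PT and 1.07, 0.94 and 1.15 in BR. SLA, a SRC-like adaptor that dampens antigen receptor signals, fell by 0.86 ± 0.066, and PIK3CD, the leukocyte PI3-kinase, by 0.52 ± 0.088. These 3 lay clear of the PT arrays on each BR array. Among B lymphoid transcription factors 9 of 46 fell and 4 rose. POU2AF1, the OCT coactivator of B cells, fell from 2.79, 2.67 and 2.87 to 1.65, 1.72 and 1.99, SPIB by 0.66 ± 0.065, IKZF2 by 0.60 ± 0.063 and BACH2, a repressor of PRDM1, by 0.56 ± 0.083. BCL6, the germinal centre repressor, changed by 0.068 ± 0.072 (adjusted p = 0.64).

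The plasma cell program had more rises than the background but no single direction, with 9 of 26 members higher and 5 lower. PRDM1, the gene of BLIMP1 and a driver of plasma cell fate, sat at 1.29, 1.26 and 1.27 in PT and 1.67, 1.702 and 1.596 in BR. IRF4, which acts upstream of it, read 1.64, 1.76 and 1.89 in PT and 2.25, 2.25 and 2.09 in BR, and CD38 read 1.24, 1.41 and 1.35 and 1.65, 1.73 and 1.71. In these 3 genes each BR array lay above each PT array, and the steps were under 0.5 units. SDC1, the plasma cell marker CD138, went from 0.96, 1.07 and 0.89 to 1.22, 1.39 and 1.48, a call lost without BR replicate 3 (adjusted p = 0.069). XBP1, the factor of the secretory program, changed by 0.21 ± 0.064, and its adjusted p was 0.042, or 0.055 to 0.19 without any 1 array other than PT replicate 3. CAV1, a caveola protein, rose by 0.86 ± 0.063 and ELL2, an elongation factor for immunoglobulin secretion, by 0.91 ± 0.066. JCHAIN, the chain that joins secreted IgM and IgA, fell from 2.42, 2.49 and 2.48 to 1.21, 1.57 and 1.36. PRDM1 did not pass when the probe sets of a gene were replaced by their median (adjusted p = 0.10), and percentile ranks ended the calls of PRDM1, SDC1 and CD38 (adjusted p = 0.050, 0.36 and 0.28). On that scale 5 members of the list rose and 4 fell.

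MHC class II genes present peptides to CD4 T cells and are held on in B cells by the coactivator CIITA. Of 18 tested genes of this list 11 fell and 0 rose, with a median change of -0.54, and 11 to 12 fell when 1 array was left out. HLA-DRB1 read 2.91, 2.71 and 2.900 in PT and 1.78, 1.81 and 2.104 in BR. HLA-DPA1 read 2.58, 2.54 and 2.61 and 1.41, 1.61 and 1.897, and HLA-DRA 2.98, 3.06 and 3.304 and 2.33, 2.52 and 2.55. BR replicate 3 was the highest BR array for all 3, and still lay below every PT array. CD74, the invariant chain that guides class II molecules, fell by 0.63 ± 0.092, and HLA-DMA, which helps load their peptides, by 0.48 ± 0.092. HLA-DQA1 spread most, at 0.72, 0.49 and 1.04 in BR against 2.07, 1.9998 and 2.15 in PT, and its call was lost with percentile ranks (adjusted p = 0.084). CIITA itself read 1.11, 1.07 and 1.21 in PT and 1.004, 1.02 and 1.03 in BR (-0.11 ± 0.081, adjusted p = 0.47). HLA probe sets can bind transcripts of related HLA genes, so the members are not separate measurements; HLA-DQB1 did not pass (adjusted p = 0.25) once _x_at and _s_at probe sets were dropped.

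Class I presentation genes moved alike, with 10 of 17 lower and 0 higher (median -0.35). HLA-E fell by 0.54 ± 0.069, HLA-C by 0.51 ± 0.055 and NLRC5, the class I counterpart of CIITA, by 0.52 ± 0.085. The immunoproteasome subunits PSMB8 (1.97, 1.99 and 2.05 in PT, 1.65, 1.63 and 1.61 in BR) and PSMB9 (2.202, 2.14 and 2.304 and 1.77, 1.83 and 1.96) and the peptide transporter TAP1 (-0.27 ± 0.06) lie among the class II genes on chromosome 6 and fell too. The light chain gene B2M changed by -0.35 ± 0.076, but the median of its probe sets (adjusted p = 0.22) and percentile ranks (0.56) ended that call.

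Class II promoters share a Y box, a CCAAT-type element bound by the factor NF-Y, and many sterol genes also carry CCAAT elements. The RefSeq promoter table (250 bases before to 50 after the first listed start of each gene, GRCh38.p14) was searched on both strands for CTGATTGG. It occurred in 1136 of 27305 promoters (4.16%) and 617 of the 11577 promoters of tested genes (5.33%). Among 13 class II genes with a listed promoter, 4 held it (HLA-DRB1, HLA-DQB1, HLA-DMA and RFX5), and of 20 sterol genes 7 did (LSS, FDPS, MVD, MVK, HSD17B7, SC5D and STARD4). The windows of 100 bases below show 3 promoters of each kind, from genes that fell, with the match in capitals; a match is a description of the sequence and no measurement of binding.
HLA-DRB1 (GRCh38.p14 chr6:32589844-32589943, minus strand): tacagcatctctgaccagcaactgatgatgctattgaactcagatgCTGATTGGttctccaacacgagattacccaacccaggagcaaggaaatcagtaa
HLA-DQB1 (GRCh38.p14 chr6:32666695-32666794, minus strand): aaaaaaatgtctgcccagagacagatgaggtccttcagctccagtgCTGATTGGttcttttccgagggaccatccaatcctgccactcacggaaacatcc
HLA-DMA (GRCh38.p14 chr6:32953126-32953225, minus strand): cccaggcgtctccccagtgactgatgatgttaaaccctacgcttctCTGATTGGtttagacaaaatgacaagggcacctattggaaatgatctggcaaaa
LSS (GRCh38.p14 chr21:46228874-46228973, minus strand): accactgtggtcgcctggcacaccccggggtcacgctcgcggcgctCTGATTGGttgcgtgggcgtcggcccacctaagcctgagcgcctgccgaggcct
MVD (GRCh38.p14 chr16:88663161-88663260, minus strand): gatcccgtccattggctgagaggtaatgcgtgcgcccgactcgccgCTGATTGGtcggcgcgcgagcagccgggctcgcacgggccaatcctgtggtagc
SC5D (GRCh38.p14 chr11:121292666-121292765, plus strand): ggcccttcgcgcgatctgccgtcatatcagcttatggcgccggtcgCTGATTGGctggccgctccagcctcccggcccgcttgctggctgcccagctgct

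Sterol synthesis and uptake genes fell nearly as a block. Of 22 tested members 17 fell and 0 rose, the changes ran from -0.71 to -0.01, and the groups did not overlap for 20 members, against 27.3% over all genes. INSIG1, the sterol-sensing anchor of the pathway, read 2.53, 2.48 and 2.52 in PT and 1.96, 1.87 and 1.59 in BR. MSMO1, a sterol demethylating oxidase, went from 2.49, 2.57 and 2.77 to 2.04, 2.19 and 2.08, and DHCR7, which makes the last step to cholesterol, from 2.202, 2.23 and 2.12 to 1.73, 1.69 and 1.67. The 3 BR arrays were below the PT arrays in each of these genes, with no overlap. HMGCS1, at the entry of the pathway, fell by 0.31 ± 0.065 and IDI1, the isopentenyl isomerase, by 0.50 ± 0.07 (adjusted p = 0.22 once _x_at and _s_at probe sets were dropped). LSS, which closes the sterol ring, fell by 0.50 ± 0.069 and SC5D, a late desaturase, by 0.41 ± 0.061. SREBF2, which encodes the master transcription factor of the pathway and is its own target, fell by 0.28 ± 0.061, while SREBF1, its relative for fatty acids, changed by -0.14 ± 0.068 (adjusted p = 0.22). Taking each gene's median probe set ended the calls of LSS (adjusted p = 0.17) and HMGCS1 (0.090), and 14 of 22 members fell in that setting.

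Fatty acid synthesis genes split, with 5 of 15 lower and 2 higher, and the falls numbered 2 to 4 when 1 array was left out, with 2 without PT replicate 2 or BR replicate 1 and 3 without PT replicate 1, BR replicate 2 or BR replicate 3. FADS2, a desaturase, fell by 0.37 ± 0.069 and ACSS2, which makes acetyl-CoA, by 0.34 ± 0.06. ACSL1, which activates long fatty acids, rose from 1.55, 1.68 and 1.72 to 2.19, 2.22 and 2.08.

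Genes of the NF-kB pathway moved both ways. Of 25 genes of TNF receptor and death signalling adaptors 5 rose (NFKBIZ, TNFAIP3, NFKBIA, TRAF3 and TNIP1), against 4.91% of all genes, and 2 fell, CFLAR and CASP8 (4 without PT replicate 1). NFKBIZ, a nuclear IkB protein, read 1.54, 1.49 and 1.83 in PT and 2.77, 2.64 and 2.64 in BR (1.07 ± 0.081), and its second probe set rose by 1.06. TNFAIP3, a ubiquitin-editing enzyme that shuts NF-kB signals down, went from 1.13, 1.05 and 1.16 to 1.49, 1.58 and 1.64. NFKBIA, the inhibitor that the proteasome degrades, went from 1.97, 1.91 and 1.96 to 2.22, 2.29 and 2.41. BR lay above PT on every array for these 3. TNIP1 rose by 0.19 ± 0.058 (adjusted p = 0.040), a call lost without PT replicate 2 (0.14), any 1 BR array (0.071 to 0.14) or any 1 JEKO array (0.056 to 0.058). NFKBID, another nuclear IkB protein and a neighbour of TYROBP, was picked after its value was seen and fell from 1.65, 1.41 and 1.59 to 1.16, 1.103 and 1.25 (-0.38 ± 0.073), opposite to NFKBIZ. The fall of CFLAR, an inhibitor of death receptor caspases, and the rise of TNIP1 also ended when _x_at and _s_at probe sets were dropped (adjusted p = 0.12 and 0.71). Among the NF-kB subunits themselves REL rose, from 1.81, 1.83 and 1.74 to 2.08, 2.16 and 2.26, while RELA (0.086 ± 0.10), NFKB1 (-0.013 ± 0.064), NFKB2 (0.044 ± 0.09) and RELB (0.16 ± 0.063) did not pass the test.

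A kappaB-like motif, GGNNTTTCC on either strand, was searched in the same promoters. It occurred in 1710 of 27305 (6.26%) and in 759 of 11577 promoters of tested genes (6.56%). In the list of TNF receptor and death signalling adaptors 7 of 21 promoters held it. These were 4 of the 5 risers (NFKBIZ, TNFAIP3, NFKBIA and TRAF3) and 3 members that were not called (TRAF5, XIAP and CYCS). The 2 fallers, CFLAR and CASP8, did not hold it. REL was looked up after its value was seen and held it too. The windows show matches in capitals for the 3 genes whose values are given above; NFKBIA has 2 matches in its promoter, and the second lies outside the printed window.
NFKBIZ (GRCh38.p14 chr3:101827740-101827839, plus strand): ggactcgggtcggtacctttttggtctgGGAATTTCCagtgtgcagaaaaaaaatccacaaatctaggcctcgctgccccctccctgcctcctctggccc
TNFAIP3 (GRCh38.p14 chr6:137867146-137867245, plus strand): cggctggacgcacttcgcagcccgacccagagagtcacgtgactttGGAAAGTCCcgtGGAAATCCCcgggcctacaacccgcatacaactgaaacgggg
NFKBIA (GRCh38.p14 chr14:35404900-35404999, minus strand): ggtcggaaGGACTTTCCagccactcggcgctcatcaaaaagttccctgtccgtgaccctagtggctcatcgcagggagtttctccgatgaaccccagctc

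MIR146A, the host transcript of a microRNA that NF-kB induces and that represses IRAK1 and TRAF6, belonged to no list and was picked after its value was seen. Its probe set read 0.84, 0.96 and 1.13 in PT and 1.83, 1.82 and 1.78 in BR, a rise of 0.83 ± 0.072 with no overlap. Its change in JEKO was 0.83. The mature product has its seed (bases 2 to 8) in capitals here, at chr5:160485372-160485393 on the plus strand (RefSeq, GRCh38.p14).
hsa-miR-146a-5p: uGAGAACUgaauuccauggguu
The array measures the host transcript and not the mature microRNA. Of its textbook targets, IRAK1 fell from 2.65, 2.52 and 2.56 to 2.35, 2.33 and 2.44 (adjusted p = 0.031, lost without PT replicate 1, BR replicate 1 or BR replicate 2 at 0.088, 0.11 and 0.15), and TRAF6 changed by -0.079 ± 0.068 (adjusted p = 0.54).

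**Figure D3:**
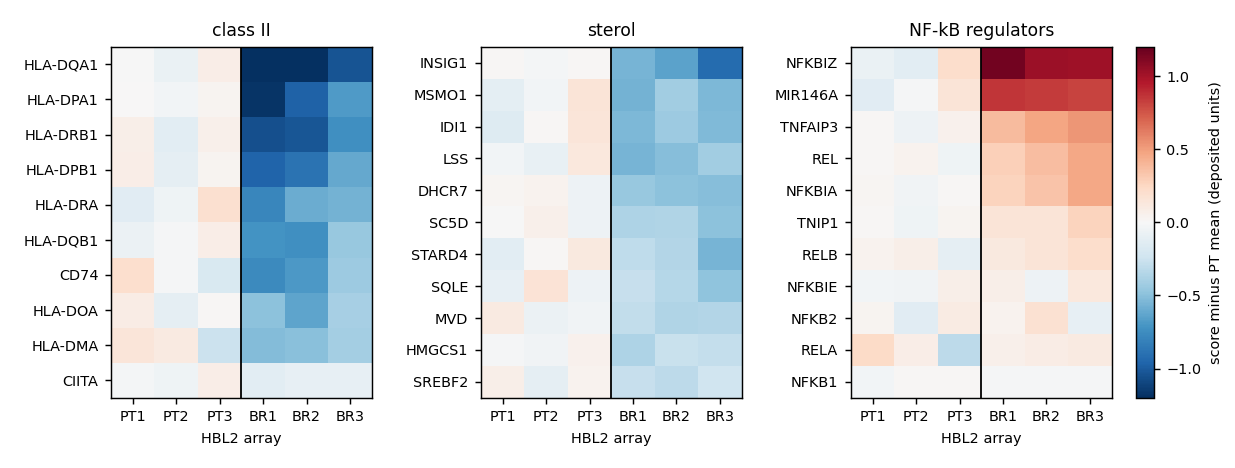
Score minus the mean of the 3 PT arrays on each of the 6 HBL2 arrays (colour, deposited units, red higher and blue lower). Rows are a selection of 10 genes of the class II list, 11 of the sterol list and 11 regulators of NF-kB. HLA-DPB1, HLA-DOA, SQLE and NFKBIE are shown but not described in the text. NFKBID, a regulator that was called lower (-0.38), is left out. All 3 BR columns are blue for the class II genes, where CIITA changed by only -0.11 and was not called, and for the sterol genes. They are red from NFKBIZ (1.07) to TNIP1 (0.19).

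Few proteasome genes passed the test, and the median change was above 0 for both the core and the regulator. Among 13 subunits of the 20S core 2 rose and 0 fell, with changes of 0.073 to 0.35 and a median of 0.15, and the groups did not overlap for 7 of them (27.3% over all genes). PSMB5, the bortezomib target, read 2.41, 2.37 and 2.38 in PT and 2.45, 2.44 and 2.49 in BR (0.073 ± 0.053, adjusted p = 0.45). PSMB6 read 2.11, 2.04 and 2.09 and 2.43, 2.39 and 2.45, and PSMA4 2.75, 2.87 and 2.84 and 3.15, 3.15 and 3.16. Both risers lie in stretches of chromosome where neighbouring genes rose too: PSMB6 in the start of chromosome 17 (median change 0.19 over 100 genes) and PSMA4 on distal chromosome 15 (0.12 over 318 genes). With percentile ranks 1 member of the core rose. The part of the neighbourhood in their rise was not tested. In the 19S regulator, which unfolds substrates, 3 of 18 rose (PSMC1 at 0.28 ± 0.052, PSMD6 at 0.26 ± 0.061 and PSMD11 at 0.23 ± 0.059), or 6 without PT replicate 1, against 4.91% of all genes. The 19S median was 0.14, and the groups did not overlap for 12 of the 18. With the beta-actin control value as a covariate 6 core and 5 regulator members rose. PSMD2 fell by 0.18 ± 0.056 in a stretch of chromosome 3 with a median of -0.16, and its adjusted p of 0.046 became 0.0996 to 0.18 without PT replicate 1 or 2 or BR replicate 1 or 2, and 0.061 to 0.066 without any 1 JEKO array. PSMD11 lost its call without PT replicate 2, BR replicate 1 or BR replicate 2 (0.073, 0.055 and 0.087). NFE2L1, which restores proteasome genes after inhibition, changed by -0.021 ± 0.08.

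In the unfolded protein response list 3 of 33 rose and 3 fell, with 1 rise and 1 fall without BR replicate 2 and 2 rises and 1 fall without BR replicate 1. HSPA5, the main ER chaperone, read 2.71, 2.89 and 2.87 in PT and 2.84, 2.86 and 2.85 in BR. DERL2, a channel component of ER-associated degradation, rose by 0.26 ± 0.059 within the same start of chromosome 17. HERPUD1, another such component, fell by 0.26 ± 0.065, lost without BR replicate 1 (adjusted p = 0.076) or 2 (0.052), and CRELD2 by 0.38 ± 0.066. In the secretory list 2 of 56 rose (1 without any 1 BR array, 4 without PT replicate 3), with SEC61B, part of the ER translocon, at 0.37 ± 0.055. Aminoacyl-tRNA synthetases had 3 rises of 17 (5 without PT replicate 1), against 4.91% of all genes, led by GARS1, from 2.72, 2.59 and 2.12 to 3.02, 3.06 and 3.01, and asparagine synthetase ASNS rose by 0.35 ± 0.068. Of 15 amino acid transporters 0 rose and 1, SLC38A2, fell by 0.21 ± 0.058, a call lost without PT replicate 2 or 3 or any 1 BR array (adjusted p = 0.063 to 0.0996). ABCB1, the efflux pump of multidrug resistance, lay at 0.51, 0.69 and 0.61 in PT and 0.50, 0.37 and 0.77 in BR, with the groups overlapping. Of 16 efflux transporters 3 fell (ABCB4 by 0.30 ± 0.072, ABCC5 by 0.24 ± 0.066, and TAP1), against 6.86% of all genes, and ABCC10 rose by 0.30 ± 0.075. Without BR replicate 2 there were 1 fall and 0 rises, with adjusted p-values of 0.054 for ABCB4, 0.093 for ABCC5 and 0.059 for ABCC10. ABCC10 also lost its call without BR replicate 3 (0.065), and ABCC5 without PT replicate 2 or 3 or BR replicate 1 or 3 (0.052 to 0.12). The cell death regulators BCL2 (-0.054 ± 0.06), MCL1 (-0.14 ± 0.059) and PMAIP1 (0.019 ± 0.092) did not pass the test. MYC, a growth-promoting transcription factor, changed by 0.19 ± 0.065 (adjusted p = 0.076), and it passed without PT replicate 3 (0.035) or BR replicate 3 (0.025).

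Adhesion and cytoskeleton genes held both gains and losses. Of 39 adhesion and homing genes 15 fell and 4 rose (median -0.22). CD44, the hyaluronan receptor, read 1.53, 1.68 and 1.86 in PT and 0.32, 0.53 and 0.90 in BR, GPR183, which positions B cells in follicles, 2.23, 2.12 and 2.02 and 1.32, 0.98 and 1.02, and ITGB7, a gut-homing integrin chain, 1.38, 1.37 and 1.13 and 0.50, 0.36 and 0.82. BR replicate 3 was the highest BR array for CD44 and ITGB7, and no BR array reached PT. ITGAE, the partner of ITGB7, rose by 0.48 ± 0.056 and lies in the stretch at the start of chromosome 17. In the actin list 4 of 42 rose and 8 fell, or 14 without PT replicate 3. Against the gain of CTTN stood COTL1, coactosin-like, at 2.38, 2.45 and 2.45 in PT and 1.49, 1.54 and 1.51 in BR, the integrin linker VCL (-0.52 ± 0.057) and CORO1A, a leukocyte actin regulator (-0.46 ± 0.066). Profilin PFN1 rose by 0.37 ± 0.061, again on chromosome 17.

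Signalling genes outside the B cell receptor showed single large changes. RGS1 and RGS13, which switch off G protein signals in B cells, rose from 0.77, 0.50 and 0.74 to 1.75, 1.71 and 1.43 and from 1.78, 1.97 and 1.78 to 2.79, 2.75 and 2.62. Their neighbour RGS2 rose by 0.23 ± 0.067, a call lost without PT replicate 1 or 2 or BR replicate 1 or 2 (adjusted p = 0.096 to 0.13). RGS13 is bright, and percentile ranks (adjusted p = 0.77) or normal scores (0.20) ended its call. Guanine exchange factors and GTPase activators had 9 falls and 2 rises of 36, with 5 falls without BR replicate 1 or 2 and 1 rise without PT replicate 3, BR replicate 1 or BR replicate 2. RALGPS2 (-0.66) and RASGRP1 (-0.54) fell, while RASGRP3 rose by 0.59 ± 0.11. Among 31 immediate-early and AP-1 genes 9 fell and 2 rose, with 4 rises without PT replicate 3 and 1 without BR replicate 2. KLF2, a quiescence factor of lymphocytes, read 1.89, 1.94 and 1.75 in PT and 1.19, 1.198 and 1.19 in BR, and IER3 rose by 0.50 ± 0.066. Dropping _x_at and _s_at probe sets ended the call of KLF2 (adjusted p = 0.75).

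Cytokine genes had 5 rises and 5 falls of 30. IL7, a growth factor for lymphocytes, went from 0.26, 0.28 and 0.42 to 1.12, 1.12 and 1.03, and the chemokine CCL4 from 1.38, 1.26 and 1.41 to 0.39, 0.46 and 0.67. CCL22, a chemokine for regulatory T cells, fell by 0.74 ± 0.099. In 22 TNF receptors only TNFRSF18 (GITR) passed the test, from 0.97, 0.81 and 0.89 to 1.49, 1.55 and 1.65, and TNFRSF17 (BCMA) changed by 0.0068 ± 0.065 (adjusted p = 0.97). SMAD9, a relative of SMAD1, rose by 0.44 ± 0.057, while SMAD5 (0.038 ± 0.075) and the target gene ID1 (0.26 ± 0.11, 1.32, 1.11 and 0.75 on the BR arrays, adjusted p = 0.17) did not pass. ID1 passed without BR replicate 3 (0.012). The cancer-testis antigens MAGEA4, from 1.498, 1.81 and 1.81 to 2.61, 2.69 and 2.53, and MAGEA1 (0.53 ± 0.081) rose and CT55 fell (-0.36 ± 0.075) among 17 tested. MAGEA4 and MAGEA1 lost their calls with percentile ranks (adjusted p = 0.45 and 0.053).

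Developmental transcription factors moved both ways, with 7 of 36 higher and 8 lower, and the falls numbered 3 without BR replicate 1 or 2, 4 without PT replicate 2 and 5 without PT replicate 3. LHX2 and MEIS1 led the rises. MEIS1 read 0.23, 0.50 and 0.63 in PT and 1.45, 1.33 and 1.11 in BR, and its second probe set rose by 0.90. LEF1, a WNT pathway factor of early lymphoid cells, went from 1.79, 1.75 and 1.87 to 2.47, 2.46 and 2.45. PT and BR did not overlap for either gene. Innate sensors had 10 falls and 3 rises of 34 (1 rise without PT replicate 1, BR replicate 1 or BR replicate 2). NLRC3, an inhibitory member of the NOD-like family, fell from 1.43, 1.32 and 1.27 to 0.54, 0.47 and 0.34, opposite to NLRP7, and CD180 headed the falls.

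Of 36 matrix genes 6 fell and 3 rose, against 6.86% and 4.91% of all genes. COL5A1, a fibrillar collagen chain, fell from 1.48, 1.13 and 1.701 to 0.51, 0.67 and 0.59 with both other probe sets lower (-0.81 and -0.63), the proteoglycan HSPG2 fell by 0.78 ± 0.11 and the collagen COL9A3 by 0.74 ± 0.062. Of 40 glycan genes 8 fell and 3 rose (1 rise without PT replicate 1, PT replicate 2 or BR replicate 3), with XYLT1, which starts proteoglycan chains, at -0.54 ± 0.082. Of 36 pumps and channels 4 rose and 5 fell, or 3 without any 1 BR array. HVCN1, the proton channel of B cells, went from 1.34, 1.21 and 1.12 to 0.56, 0.58 and 0.76, below PT on each BR array, in contrast to ATP1B1. Among 28 cytokine receptors 3 rose and 5 fell, with 3 falls without BR replicate 1 and 2 without BR replicate 2. IL21R, which drives plasma cell differentiation, rose by 0.40 ± 0.062, and CSF2RB, the shared chain of the IL3 family, fell by 0.50 ± 0.074. In the JAK, STAT and SOCS list 3 of 21 fell and 0 rose, among them PTPN6, the inhibitory phosphatase SHP1 (-0.35 ± 0.062).

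Of 48 chromatin regulators 2 rose and 1 fell, of 43 cytosolic ribosomal protein genes 3 rose and 0 fell, and of 51 oxidative phosphorylation genes 4 rose and 5 fell, where the last pair is above the 4.91% and 6.86% of all genes. Of 30 genes that handle ubiquitin chains 1 (VCP) rose and 2 (FAF1 and ISG15) fell. Counts this small moved with single arrays: the ribosomal rises numbered 6 without PT replicate 1 and 1 without BR replicate 2, the respiratory rises 1 without BR replicate 1 or 2, and the rise in the ubiquitin list 0 without BR replicate 1 or 2 and 2 without PT replicate 1 or 3. Chromatin regulators gave 1 rise without PT replicate 2, 0 falls without PT replicate 2, BR replicate 1 or BR replicate 2, and 2 falls without PT replicate 3 or BR replicate 3. T and NK cell markers (5 genes), stromal and epithelial markers (8) and erythroid markers (4) had 0 called genes with limma, and 0 when any 1 HBL2 array was left out.

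In HBL2 BR some stretches of chromosome held many genes that changed in the same direction. The 14491 genes with a place in the RefSeq gene table (GRCh38.p14, used here for gene order) were divided along each chromosome into 289 blocks of 50 genes, and 232 of these blocks had a median change within 0.05 of 0. Each stretch described here holds a block whose median lies 0.13 or more from 0, with that bound and the borders set after the block values were seen, so their values carry no test. On the distal part of chromosome 2, from POU3F3 to the end, 141 of 474 genes fell and 9 rose (29.7% and 1.90%), with a median of -0.14, against -0.0045 for the rest of the chromosome. Medians per array, relative to the PT mean, were -0.0047 to 0.012 in PT and -0.14 to -0.12 in BR. The 9 blocks before POU3F3 had medians between -0.029 and 0.050.

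Chromosome 15 was the reverse. From COPS2 to the end 62 of 318 genes rose and 3 fell, with a median of 0.12 and array medians of -0.00022 to 0.0051 in PT and 0.11 to 0.14 in BR. The first 100 genes tested on chromosome 17, from MGC70870 to ALOX12P2, had 42 rises and 2 falls (median 0.19), against -0.0029 for the remaining 777 genes. The array medians there were -0.019 to 0.023 in PT and 0.18 to 0.23 in BR, so all 3 BR arrays stood apart from PT. Chromosome 7 from FKBP6 to its end had 68 falls and 15 rises of 433 (median -0.098), and the 250 genes before it had a median of 0.042. Blocks of 50 genes fell at the start of chromosome 5 (PLEKHG4B to OTULIN, 18 falls and 0 rises, median -0.15) and on chromosome 3 (USP13 to RPL39L, 19 falls and 1 rise, -0.16). On chromosome 14 the block PPP4R3A to CYP46A1 had 11 rises and 4 falls (0.13). For an array median, 3 against 3 arrays allow an exact permutation p (two-sided) of 0.10 at the smallest, so no test is given. In JEKO BR the medians of the same genes were 0.0088 on chromosome 2, 0.019 on 15, -0.055 on 14, 0.059 on 5 and 0.032 on 3. On chromosome 17 the JEKO median was 0.096, above 0 as in HBL2, but it was also 0.064 for the rest of that chromosome. On chromosome 7 the JEKO median was 0.081, of opposite sign to HBL2, against 0.037 for the rest of that chromosome. Some blocks nearer 0 were not grouped: the second of chromosome 5 (0.11, 9 rises and 3 falls), beside the falling start, the first 2 of chromosome 3 (0.10 and 0.090), the first 4 of chromosome 19 (0.052 to 0.095) and the fifth of chromosome 22 (-0.095). JEKO BR had shifted blocks of its own outside these stretches. Its median was -0.21 from SEPHS1 to MPP7 on chromosome 10 (0.014 in HBL2). From GVQW3 to CEP295 on chromosome 11 it was -0.19 (0.029 in HBL2). DNA was not measured in these samples.

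**Figure D4:**
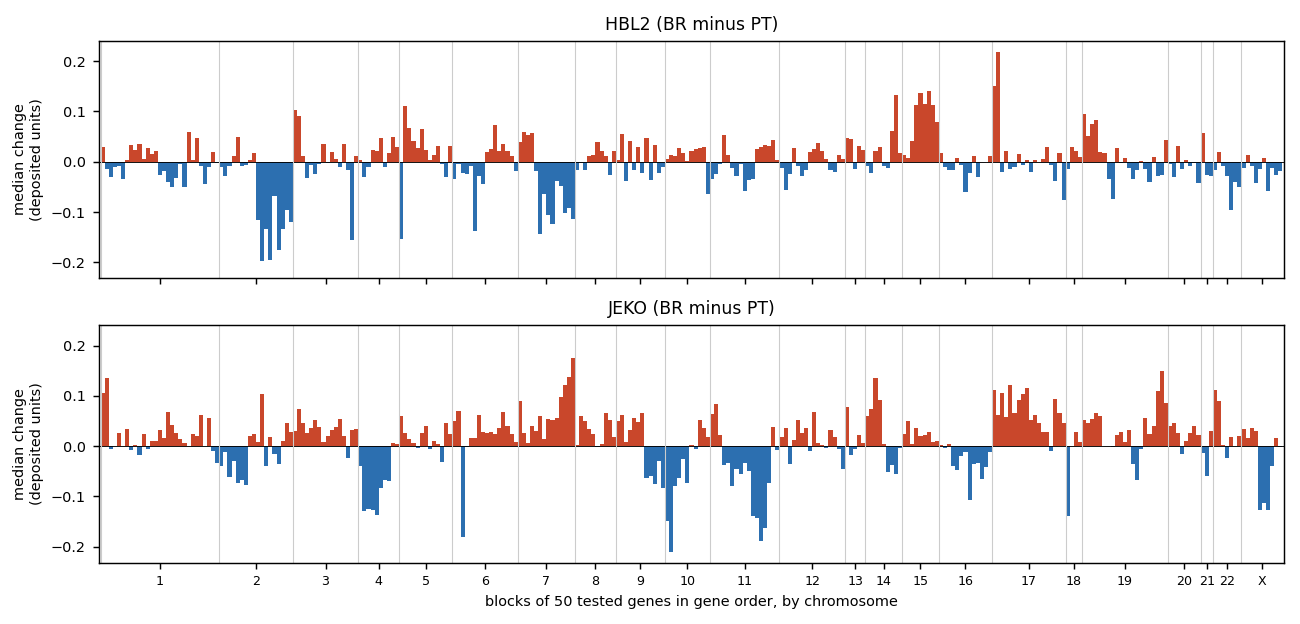
Median BR minus PT change (y axis, deposited units) of 289 blocks of tested genes, 50 genes to a block apart from the last of a chromosome, in gene order along the chromosomes (x axis), for HBL2 (top) and JEKO (bottom); red bars are above 0 and blue bars below. In HBL2 the bars run from -0.20 on chromosome 2 to 0.22 at the start of chromosome 17, with a break within chromosomes 2, 7 and 17. In JEKO the medians of these HBL2 stretches are 0.0088 on chromosome 2 and 0.096 on chromosome 17 (0.064 for the rest of chromosome 17). JEKO has shifted blocks elsewhere, such as -0.21 from SEPHS1 to MPP7 on chromosome 10.

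The falling stretches on chromosomes 2, 3, 5 and 7 held 1007 genes, 6.95% of those placed, and 246 of the falls (24.7%). The rising stretches on chromosomes 15 and 17 held 418 genes (2.88%) and 104 of the rises (14.6%). The stretches were picked by their block medians in this same comparison, so such an excess is built into the choice. Outside all the stretches, with the chromosome 14 block and the class II region of chromosome 6 also set aside, 1302 of 12966 genes were called. Over all genes tested it was 1711 of 14529 (11.8%). Runs of at least 3 adjacent tested genes called in the same direction numbered 41 and held 146 genes, and 11 runs were on chromosome 2 and 7 on chromosome 17. The longest was RPAIN, C1QBP, DHX33, DERL2, MIS12, LOC728392 and NLRP1 on chromosome 17, each higher by 0.26 to 0.45. C1QBP, a mitochondrial protein, read 2.4998, 2.57 and 2.58 in PT and 2.95, 3.04 and 2.99 in BR, a small step with tight groups. NLRP1 changed direction (-0.091, adjusted p = 0.66) when _x_at and _s_at probe sets were dropped, and its call was lost without PT replicate 1 or 2 or BR replicate 1 or 2 (0.054 to 0.070). A run of 6 on chromosome 2 (KCTD18, SGO2, BZW1, CLK1, PPIL3 and NIF3L1) fell by 0.21 to 0.42. Its length depends on 2 members, since CLK1 lost its call without any 1 array other than PT replicate 1 (adjusted p = 0.061 to 0.20) and BZW1 without PT replicate 2 (0.068) or BR replicate 3 (0.051).

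Several genes with known roles lie in these stretches. On chromosome 2, IDH1, a NADPH-making dehydrogenase, read 1.94, 2.06 and 2.16 in PT and 1.48, 1.57 and 1.51 in BR, PDK1, which inhibits pyruvate dehydrogenase, 1.77, 1.89 and 2.09 and 1.36, 1.36 and 1.44, and LY75, an endocytic receptor, 1.45, 1.51 and 1.55 and 0.73, 0.58 and 0.23. The death regulators CFLAR (-0.35) and CASP8 (-0.28), the respiratory subunit NDUFB3 (-0.26) and IKZF2 lie there as well. CHRD, a bone morphogenetic protein antagonist, fell by 0.59 ± 0.11 and ST6GAL1, which adds sialic acid to surface glycans, by 0.63 ± 0.07 on chromosome 3. The respiratory genes NDUFS6 (-0.30) and SDHA (-0.28) lie at the start of chromosome 5, and INSIG1 on distal chromosome 7. The part of the neighbourhood in any of these changes was not tested.

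Other runs were short and had larger steps. FCGR2A, HSPA6, FCGR2C, FCGR2B and FCRLA on chromosome 1 fell by 0.37 to 1.17. FCGR2A, FCGR2B and FCGR2C are closely similar genes, so their probe sets may share transcripts, while HSPA6 and FCRLA are not such copies. FCGR2A lost its call without PT replicate 1, PT replicate 2 or BR replicate 2 (adjusted p = 0.052 to 0.097). TCL6, TCL1B and TCL1A on chromosome 14 fell by 0.28 to 1.94, with the call of TCL6 lost without PT replicate 1 or 2 or BR replicate 1 or 2 (0.054 to 0.10). ADORA1, MYBPH and CHI3L1 on chromosome 1 rose by 0.58 to 0.88. In the class II region of chromosome 6 (AGER to NUDT3) 14 of 50 genes fell and 0 rose. Of the 33 genes there outside the HLA family and the MHC lists 1 fell and 0 rose, with a median of -0.058.

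JEKO served as the second pair and shares no arrays with HBL2. Among the 30 largest HBL2 changes, 29 differed from the JEKO change by a limma test of the difference (8.71% of all genes did), 14 rises and 15 falls. That background of 1266 genes was 658 without JEKO BR replicate 2, 696 without JEKO PT replicate 1 and 832 without JEKO PT replicate 2. The exception was ADM (1.15 in HBL2, 0.80 in JEKO). These genes were chosen for large HBL2 changes, so the share says little by itself. Of the 30, 7 were called in the same direction in JEKO, where 4.28% of all genes were called: NLRP7 (0.69), LHX2 (0.50), ADM, NFKBIZ (0.44), CD80 (0.38), TCL1B (-0.59) and OSBPL10 (-0.58). CPXM1 and S100A4 went the other way there (0.55 and 0.42), as did SMAD1 (1.004 in HBL2, -1.18 in JEKO). Genes called in both lines numbered 91 in the same direction and 87 in opposite directions. TNFAIP3 (0.46 and 0.52), NFKBIA (0.36 and 0.30), CAV1 (0.86 and 0.74) and P2RX5 (0.66 and 0.67) were higher in BR of both lines. The class II list had a median of 0.019 in JEKO with 1 rise and 0 falls, and the sterol list 0.013 with 0 called genes.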

How the data were processed

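Total RNA of 10 samples was measured on Affymetrix arrays. The authors' deposited scores, 1 per probe set and array, were made with MAS5 per the submitters' processing notes; no source used here gives its version, the later steps or the log base. The sorted scores were identical on all arrays, so overall shifts are lost, and replicate number, not read depth, limits precision. Control probe sets and those with several or no gene symbols were left out. Genes had to reach the 50th percentile on at least 2 of the 10 arrays, and the brightest probe set stood for a gene. limma 3.58.1 (R 4.3.3, intensity trend) fitted 4 group means to all 10 arrays, with a Benjamini-Hochberg adjusted p under 0.05 over 14529 genes as the call; ± is the standard error of a change. The fit was tested on simulated data. Named genes by rule were the 15 largest called rises and falls without overlap between groups and the 10 largest switched genes each way. So were 24 chosen genes (22 tested), the 4 largest calls per list and members of runs. REL's promoter and many further genes were added after the values were seen, most without a mark where they are named. Uncalled ones among them were CDK4, CCND2, CCND3, RELA, NFKB1, NFKB2, RELB, SMAD5, ID1 and TNFRSF17. Called ones included CD37, CD72, CD74, HLA-DMA, B2M, HMGCS1, DHCR7 and SC5D. The members, genes and lists were chosen with earlier results of these data known. Deviations of same-numbered PT and BR replicates from their group means had correlations of 0.017, 0.14 and 0.0075. Those of differently numbered replicates ran from -0.20 to 0.15. With 3 arrays a group, such values cannot settle whether the numbers pair samples. The main fit used no pairing. Alternatives covered probe set choice, filters, the trend, array weights, HBL2 arrays alone, rank scales, a replicate block, an RNA quality covariate and leaving out each array.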

Additional observations from a re-analysis of the deposited data

Results flagged for a closer look

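The limma test of the HBL2 change minus the JEKO change passed an adjusted p of 0.05 for 29 of the 30 largest HBL2 changes, against 8.71% of all genes (1266 genes, or 658 without JEKO BR replicate 2, 696 without JEKO PT replicate 1 and 832 without JEKO PT replicate 2). Since the 30 were picked for large HBL2 changes, such a difference is partly built into the choice. In deposited units, the rises exceeded the JEKO change by these amounts: BCHE (1.63), HNRNPLL (1.54), OLFML2A (1.53), RRAS2 (1.26), ESRRG (1.23), CTTN (1.12), ATP1B1 (0.99), ZNF462 (0.97), CDK6 (0.93), PPM1L (0.91), CD80 (0.67), LHX2 (0.65), NFKBIZ (0.63) and NLRP7 (0.46). The falls lay below the JEKO change by these amounts, as HBL2 minus JEKO: CPXM1 (-1.93), CD52 (-1.81), CD180 (-1.59), TCL1A (-1.56), S100A4 (-1.56), TYROBP (-1.56), TRAF3IP3 (-1.41), AFF3 (-1.34), HLA-DQA1 (-1.34), FADS3 (-1.32), C16orf54 (-1.07), AEBP1 (-1.04), TCL1B (-1.02), FCGR2B (-1.01) and OSBPL10 (-0.84). Among these 29 the widest gap belonged to CPXM1, which fell in HBL2 and rose in JEKO. Groups of 2 or 3 arrays are too small to test for single outlying samples.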

How the results depend on the processing

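The naming rules and later additions covered 368 genes, some of them members of runs that are not named above. Of the 314 called among these, 182 kept their call in each of 24 alternatives. So did 26 of the 30 largest changes (the other 4 are CDK6, OSBPL10, HLA-DQA1 and TRAF3IP3). At an adjusted p under 0.01, 957 genes differed (357 higher, 600 lower). With the HBL2 arrays alone in the fit, 1423 genes were called (565 higher, 858 lower). Array weights gave 2684 (1195 higher). Leaving out 1 array gave 1118 to 1647 calls, 419 to 749 of them higher and 699 to 978 lower, and 658 to 1473 differences between the lines, with the lowest HBL2 counts without HBL2 BR replicate 2 and the fewest differences between lines without JEKO BR replicate 2. With the replicate block, on numbers that the labels do not say pair the samples, 1741 genes were called (722 higher, 1019 lower) and 1257 differed between lines. The beta-actin covariate and the JEKO arrays left out in turn were added after seeing the data, and the covariate gave 2150 calls (968 higher, 1182 lower), 1711 of them shared. With each gene's median probe set MRPL35 turned to -0.026 (adjusted p = 0.84), and NLRP1 to -0.091 (adjusted p = 0.66) without _x_at and _s_at probe sets; the cause was not tested. With 3 arrays a group and rank-like scores, the smallest called change was 0.166 units.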
